A study of Mus musculus with 12 samples.

Results

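Mouse OT-I CD8 T cells that had been primed with the weak peptide Y3 in the presence of corticosteroid were compared with OT-I cells primed with the strong peptide N4 and no corticosteroid. Both the peptide and the steroid differ between these groups, the opposite corners of the experiment. The comparison took 6 of the 12 arrays, 3 in each group, and all 40123 rows of the array table that carry a gene symbol, out of 65956 transcript rows. The other 6 arrays, N4 with corticosteroid and Y3 without it, were fitted with them. They add to the estimates of spread and of replicate effects behind every call. They also split the difference into a peptide component and a corticosteroid component.

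OT-I mice carry a transgenic T cell receptor that recognises an ovalbumin peptide held by the class I molecule H2-Kb, so nearly all of their CD8 T cells have 1 specificity. Spleen cells of such mice were primed in culture with N4, the natural peptide and a strong agonist, or with Y3, an altered peptide that is a weaker ligand of the same receptor. All 4 groups were sampled on day 4 and share the transgenic receptor and the culture. The labels call the arrays of a group biological replicates 1 to 3 without saying whether these were separate mice or cultures. The p-values set a difference against the spread among arrays that is left after group and replicate effects are fitted. Some of that spread may be technical. The name and dose of the corticosteroid are not given in the sources used here. One receptor and 1 time point limit what the cells can stand for, and the spleen cultures held other cells when priming began.

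A T cell receives a graded signal through its receptor. Strong ligands drive Irf4, Batf3 and Myc, the interleukin 2 receptor, glucose and amino acid uptake and the release of cytokines, while weakly stimulated cells keep more of the naive and memory programme with Tcf7 and Lef1. Corticosteroids bind the glucocorticoid receptor Nr3c1, a transcription factor that induces Tsc22d3, Fkbp5 and Klf9 and represses inflammatory cytokine genes. The question the comparison addresses is in which genes weak ligand and corticosteroid add up.

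Values are log2 signals, and 1 unit is a 2-fold step. Array medians over the rows with a symbol lay between 5.01 and 5.16, and 11542 to 13245 rows per array were above the background line, the 75th percentile of that array's negative controls. On the first principal component (48.5% of the variance) replicate 1 of N4 and of N4 with corticosteroid, at -72.8 and -70.4, stood furthest from the other arrays, at -31.3 to 52.2. Replicate 3 of the same groups stood apart on the second component (19.9%), with scores of 56.5 and 50.6 against -27.1 to 7.01. Negative controls were 0.23 ± 0.14 brighter (SD of 3 pairs) in Y3 with corticosteroid than in N4, and none of the 5222 was called by limma. Differences were tested with limma over all 12 arrays, with the replicate number as a block, and were called at a Benjamini-Hochberg adjusted p below 0.05. Arrays of the same number were paired by choice, and the labels do not say that they belong together. Errors of differences are standard errors of that fit. The adjusted p without the block is added where the block decides the call.

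Of the 40123 rows, 4053 passed the threshold, or 10.1%, and 2017 of these (5.03% of all rows) were higher and 2036 (5.07%) lower in Y3 with corticosteroid than in N4. Among the 12973 rows with a group mean above the background line the share was 24.3%, with 11.5% higher and 12.8% lower. The difference exceeded 2-fold in 970 called rows and 8-fold in 31. In 3044 of the called rows the groups did not overlap. Rows picked by a low p tend to separate, and the count over all rows is not given, so 3044 is only a description. Both groups were below the background line on all their arrays in 768 of the called rows. Without the replicate block 663 rows passed, or 1.65%, with 206 higher and 457 lower, and all of them were among the 4053. In a fit of the 6 compared arrays alone 576 rows passed with the block and 0 without it. Leaving out replicate 1 of N4 gave 2609 rows, replicate 2 of N4 gave 2052, replicate 1 of Y3 with corticosteroid gave 2689 and replicate 2 of that group gave 1766. When each array was instead centred on its negative controls, the median of all rows moved from 0.0025 to -0.23, and the split became 974 higher against 5215 lower.

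In this balanced layout the difference between the corners equals the average peptide effect plus the average corticosteroid effect, by arithmetic. The average peptide effect, Y3 minus N4 over both steroid states, passed the threshold in 5024 rows, or 12.5%. The average corticosteroid effect, over both peptides, passed in 5 rows, or 0.0125%, with 2772 rows at an unadjusted p below 0.05. Without the block 0 rows passed by limma, with 1315 at an unadjusted p below 0.05. None passed without replicate 3 of N4, replicate 2 of N4 with corticosteroid or any 1 of the 3 Y3 arrays, and 99 passed with array weights. The departure from additivity, which is the difference between the corticosteroid effects under Y3 and under N4, passed in 0 rows by limma, with 1138 at an unadjusted p below 0.05. Both components had the sign of the total in 3809 of the 4053 called rows, and the corticosteroid component opposed it in 238. The choice of rows by their total favours components of the same sign, so these counts are descriptions with no test. The corticosteroid component made up a median of 25.9% of the called differences. It made up less than 25% of the difference in 1684 rows, 25% to 50% in 1912 and 50% or more in 219.

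**Figure D1:**
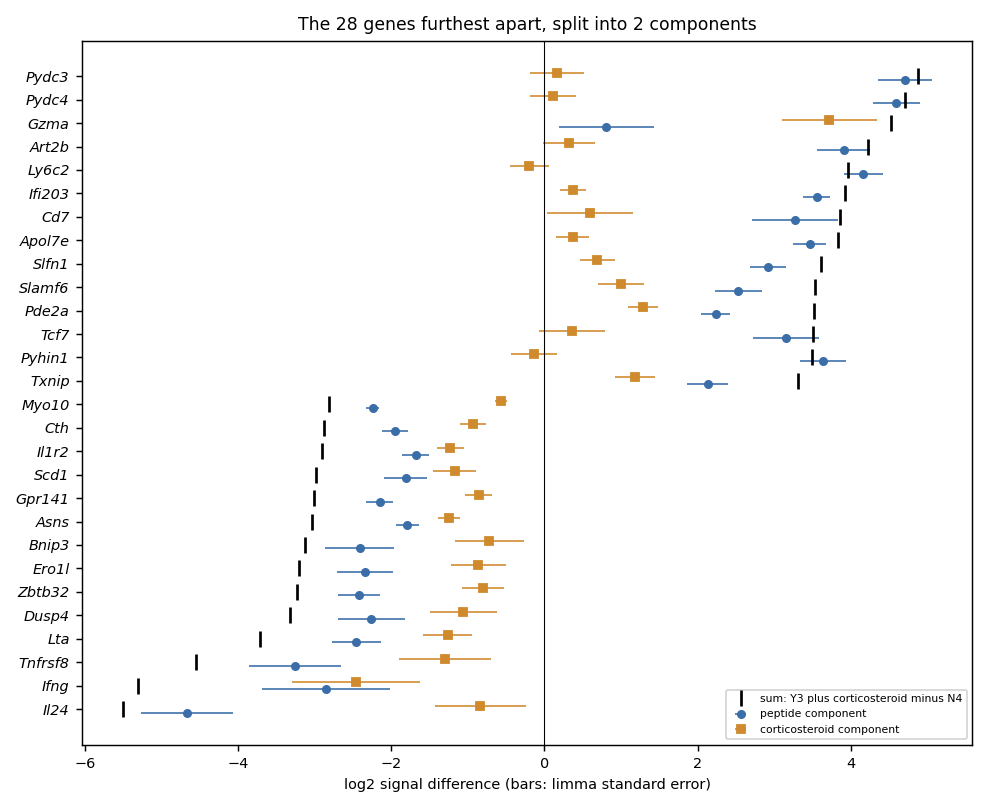
Peptide component and corticosteroid component (log2 signal, limma standard errors as bars) of the 14 highest and 14 lowest named genes, with their sum, which is Y3 with corticosteroid minus N4. The peptide component is the longer one in these genes except Gzma, where it was 0.81 against 3.72 for the corticosteroid.

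The genes with the largest smaller component are given first. They passed the threshold between the corners, but none of their corticosteroid components passed on its own. Asns encodes asparagine synthetase, a target of the amino acid response. Its log2 signal was 12.74, 12.62 and 12.82 in N4, 12.15, 11.19 and 12.21 in N4 with corticosteroid, 11.73, 10.91 and 11.27 in Y3, and 10.37, 9.10 and 9.60 in Y3 with corticosteroid. Every N4 array lay above every array of the other groups, and every array of Y3 with corticosteroid lay below them. Asns fell by 3.04 ± 0.21 (adjusted p = 0.000203), the sum of a peptide component of -1.79 and a corticosteroid component of -1.25.

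Pde2a, a cyclic nucleotide phosphodiesterase, ran the other way. Its signal was 5.68, 7.16 and 6.97 in N4 and 9.52, 11.04 and 9.82 in Y3 with corticosteroid, with 7.41, 9.13 and 8.73 in Y3 alone and 6.01, 8.28 and 8.16 in N4 with corticosteroid. The corner groups did not overlap. Pde2a rose by 3.52 ± 0.27 (adjusted p = 0.000303), of which 2.23 was peptide and 1.29 corticosteroid. Txnip, which restrains glucose uptake, had 11.75, 12.97 and 11.96 in N4 and 14.89, 15.76 and 15.95 in Y3 with corticosteroid, again without overlap. It rose by 3.31 ± 0.37 (adjusted p = 0.00127), with components of 2.13 and 1.18.

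Ifng and Lta encode the inflammatory cytokines interferon gamma and lymphotoxin alpha. Ifng signals were 15.06, 8.39 and 9.78 in N4 and 6.38, 4.30 and 6.63 in Y3 with corticosteroid, the latter all below the background line. The N4 arrays were far apart, and the lowest of them was still above the highest of the other group. Ifng was at least 14.2-fold lower (fitted difference -5.30 ± 1.18, adjusted p = 0.0225; 0.268 without the block), with components of -2.85 for the peptide and -2.45 for the corticosteroid. Its call was lost without replicate 1 of N4 (0.0971), replicate 2 of N4 (0.0691), replicate 1 of Y3 with corticosteroid (0.0772) and replicate 2 of Y3 with corticosteroid (0.0577). Lta had 13.30, 10.53 and 11.998 in N4 against 8.56, 7.18 and 8.94 in Y3 with corticosteroid and no overlap. It fell by 3.72 ± 0.45 (adjusted p = 0.00173; 0.0920 without the block), with components of -2.45 and -1.26.

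Tnfrsf8 (CD30, a costimulatory receptor), Scd1 (stearoyl-CoA desaturase) and Il1r2 (the decoy receptor of interleukin 1) complete the set of 8. Tnfrsf8 fell by 4.55 ± 0.84 (adjusted p = 0.0105; 0.124 without the block), with a corticosteroid component of -1.30, and its call was lost without replicate 2 of N4 (0.0552) and replicate 2 of Y3 with corticosteroid (0.0574). Scd1 fell by 2.98 ± 0.39 (adjusted p = 0.00242; 0.220 without the block), although its groups overlapped, at 15.17, 15.19 and 13.01 in N4 against 13.39, 11.14 and 9.89 in Y3 with corticosteroid. Il1r2 went from 9.03, 8.16 and 8.04 to 6.17, 5.25 and 5.09 and was at least 2.24-fold lower (fitted difference -2.91 ± 0.25, adjusted p = 0.000463), with components of -1.68 and -1.23. These 8 genes were picked for having 2 sizeable components, so the split itself is a description.

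**Figure D2:**
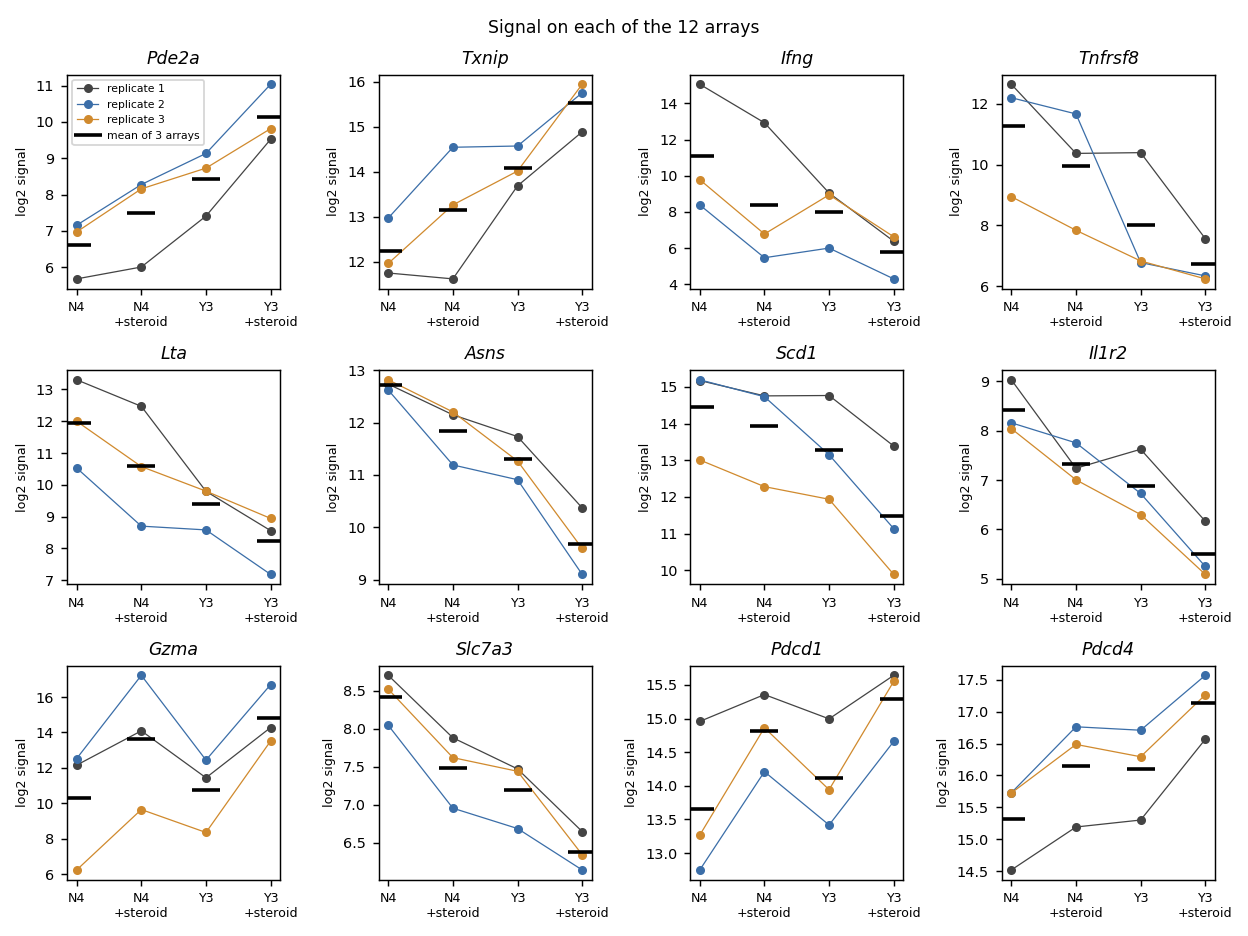
Log2 signal of 12 genes on each of the 12 arrays, by group, with lines joining arrays of the same replicate number and bars at group means. From N4 to Y3 with corticosteroid, Pde2a and Txnip climb and Ifng, Tnfrsf8, Lta, Asns, Scd1 and Il1r2 descend, and Gzma, Slc7a3, Pdcd1 and Pdcd4 are genes with a large corticosteroid component.

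The 5 rows whose average corticosteroid effect passed the threshold were also called between the corners. None of these corticosteroid effects passed without the block, so their adjusted p-values below rest on it. Slc7a3, a cationic amino acid transporter, had 8.71, 8.05 and 8.52 in N4 and 6.65, 6.14 and 6.34 in Y3 with corticosteroid, where it was below the background line. The other groups lay between, with means of 7.49 for N4 with corticosteroid and 7.20 for Y3. Slc7a3 was at least 2.26-fold lower (fitted difference -2.05 ± 0.11, adjusted p = 0.000104), with a corticosteroid component of -0.88 (adjusted p = 0.0150) and a peptide component of -1.17.

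Pdcd4, a translation inhibitor, rose by 1.81 ± 0.13 (adjusted p = 0.000216; 0.122 without the block), from 14.52, 15.73 and 15.73 to 16.57, 17.57 and 17.26. Its components were nearly equal, 0.88 for the peptide and 0.93 for the corticosteroid (adjusted p = 0.0206). Npas2, a circadian transcription factor, rose by 1.01 ± 0.11 (adjusted p = 0.00102; 0.0624 without the block), and 0.96 of that was corticosteroid (adjusted p = 0.0107) against 0.06 for the peptide. Amica1, an adhesion molecule, rose by 0.49 ± 0.10 (adjusted p = 0.0131; 0.350 without the block), and Arl14ep rose by 0.53 ± 0.11 (adjusted p = 0.0162; 0.102 without the block). In both, a corticosteroid component of 0.87 or 0.83 was partly offset by a peptide component of -0.38 or -0.30. The Amica1 call was lost without replicate 2 of N4 (0.0627) and, with centring on the negative controls, had an adjusted p of 0.216. The Arl14ep call was lost without replicate 1 of N4 (0.0657), replicate 3 of N4 (0.0605), replicate 2 of Y3 with corticosteroid (0.0706) and replicate 3 of Y3 with corticosteroid (0.0545).

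The gene lists below were chosen with earlier results of these data known. Their counts beside the shares of all rows are thus descriptions with no test. Genes known to be induced by glucocorticoids moved in both directions between the corners. Of 20 on the array, 6 were called higher and 4 lower, against 5.03% and 5.07% of all rows, with a median difference of 0.30. Among rows above the background line the shares were 11.5% and 12.8%. Without the block 2 were higher and 2 lower. The count of higher genes was 3 without replicate 2 of N4 or replicate 1 or 2 of Y3 with corticosteroid, and that of lower genes 2 without replicate 1 or 2 of N4 or replicate 1, 2 or 3 of Y3 with corticosteroid. Tsc22d3 (GILZ), the glucocorticoid-induced leucine zipper gene, rose by 1.89 ± 0.30 (adjusted p = 0.00512; 0.151 without the block), from 7.34, 7.86 and 8.61 to 9.10, 10.24 and 10.13, and 1.33 of that was the corticosteroid component. Tle4, a corepressor, rose by 2.01 ± 0.10 (adjusted p = 0.000104) and owed 1.88 of that to the peptide.

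The metallothionein genes Mt1 and Mt2, whose products bind zinc and copper, went the other way. Mt1 fell by 1.36 ± 0.17 (adjusted p = 0.00200) and Mt2 fell by 1.86 ± 0.27 (adjusted p = 0.00354), with peptide components of -1.03 and -1.49. Fkbp5 had a difference of 0.84 ± 0.29 (adjusted p = 0.112) and Per1 one of 0.11 ± 0.23 (adjusted p = 0.874), and neither passed. The receptor gene Nr3c1 itself had 8.97, 9.78 and 9.62 in N4 and 9.99, 10.24 and 9.83 in Y3 with corticosteroid, a difference of 0.57 ± 0.16 (adjusted p = 0.0560) that did not pass.

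Gzma, which encodes the serine protease granzyme A, stood out for its corticosteroid component. Its signal was 12.16, 12.53 and 6.24 in N4 and 14.28, 16.70 and 13.52 in Y3 with corticosteroid. The N4 array of replicate 3 was far below the other N4 arrays, and the groups did not overlap. Gzma rose by 4.53 ± 0.88 (adjusted p = 0.0126; 0.377 without the block), a call lost without replicate 2 of N4 (0.0572). The corticosteroid component of 3.72 ± 0.62 did not pass on its own (adjusted p = 0.122), and the peptide component was 0.81.

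Some inhibitory receptors, which dampen T cell responses, also had sizeable corticosteroid components, although the median over the list was -0.03. Pdcd1 (PD-1) had 14.96, 12.75 and 13.27 in N4 and 15.64, 14.66 and 15.55 in Y3 with corticosteroid, so that the groups overlapped while each pair differed the same way. It rose by 1.63 ± 0.25 (adjusted p = 0.00492; 0.223 without the block), with 1.16 from the corticosteroid (adjusted p = 0.106) and 0.47 from the peptide. Tigit rose by 1.38 ± 0.27 (adjusted p = 0.0123; 0.0784 without the block), with 0.97 from the corticosteroid (adjusted p = 0.190), a call lost without replicate 2 of N4 (0.0621). Cd160 rose by 2.05 ± 0.21 (adjusted p = 0.000901; 0.121 without the block), with 0.95 from the corticosteroid (adjusted p = 0.115). Of 12 inhibitory receptors 4 rose (0 without the block), against 5.03% of all rows and 11.5% of rows above the background line called higher. Cd101, the fourth that rose, was below the background line in both groups. Cd200 fell by 2.17 ± 0.42 (adjusted p = 0.0119; 0.144 without the block), a call lost without replicate 1 of N4 (0.0542) and replicate 1 of Y3 with corticosteroid (0.0518). Lag3 had a difference of 0.09 ± 0.11 (adjusted p = 0.746), Ctla4 one of 0.31 ± 0.25 (adjusted p = 0.588) and Havcr2 (TIM-3) one of 0.92 ± 0.85 (adjusted p = 0.644).

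Interferon-response genes made up much of the upper end, with small corticosteroid components. Interferons act through transcription factors that bind the interferon-stimulated response element in promoters. Of 24 interferon-stimulated genes 17 rose, of 12 interferon-induced GTPases 10 rose, and of 17 genes of the PYHIN, Schlafen and apolipoprotein L families 11 rose, with no member of these lists called lower. Over all rows 5.03% were called higher. The median differences were 1.08, 1.57 and 2.37, against 0.0025 for all rows, and the medians of the corticosteroid component were 0.07, 0.29 and -0.01. Without the block 4, 0 and 7 members passed. In the 6 compared arrays with the block 8, 6 and 10 were called higher. The first of these lists had 11 without replicate 3 of N4, and 6 of its members were below the background line in both groups.

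PYHIN proteins sense or bind DNA, and mouse Schlafen proteins restrain T cell growth. The stretches just before the gene start of 5 members that rose are shown because each holds the interferon-stimulated response element, searched on both strands as GAAA, any 2 bases, GAAA. The matching letters are in capitals, and a match on the opposite strand reads TTTC, any 2 bases, TTTC. Sequences are from RefSeq, mouse build GRCm38.p6, written 5′ to 3′ on the strand of the gene, and end on the last base before the start.
Ifi203, chr1:173942493-173942582, minus strand: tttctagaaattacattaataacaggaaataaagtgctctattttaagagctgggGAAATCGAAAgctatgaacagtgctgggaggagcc
Mndal, chr1:173880188-173880277, minus strand: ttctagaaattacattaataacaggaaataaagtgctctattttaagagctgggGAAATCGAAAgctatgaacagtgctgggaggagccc
Apol7e, chr15:77698799-77698888, plus strand: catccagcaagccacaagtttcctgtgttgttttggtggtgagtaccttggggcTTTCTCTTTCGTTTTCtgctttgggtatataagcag
Gbp2, chr3:142620573-142620662, plus strand: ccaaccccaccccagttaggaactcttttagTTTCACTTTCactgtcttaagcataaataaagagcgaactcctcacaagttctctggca
Irgm1, chr11:48871421-48871510, minus strand: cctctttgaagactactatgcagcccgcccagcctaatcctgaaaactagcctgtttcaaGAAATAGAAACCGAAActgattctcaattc
Apol7e and Irgm1 hold 2 overlapping matches. Ifi203 and Mndal share a run of 89 bases, so signals within this family are uncertain where probes could bind more than 1 copy. In windows from 250 bases before to 50 after the start, the letters occurred in 9 of 17 interferon-stimulated genes with a window, 9 of 13 PYHIN, Schlafen and apolipoprotein L genes and 8 of 9 GTPases, against 3.99% of the 27025 genes in the table. The genes with a match include Ifi205, Gbp5 and Tgtp1, which have no row of that symbol on the array, so these are not only measured genes. A match is a description of letters and shows no bound factor.

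Ifi203 had 7.34, 9.89 and 9.70 in N4 and 11.96, 13.26 and 13.47 in Y3 with corticosteroid, with no overlap. It rose by 3.92 ± 0.24 (adjusted p = 0.000147; 0.0523 without the block), of which 3.55 was peptide and 0.37 corticosteroid. Mndal rose by 2.48 ± 0.20 (adjusted p = 0.000320; 0.130 without the block). Pydc3 and Pydc4, PYHIN family genes, had the highest differences of the named genes. Pydc3 rose by 4.87 ± 0.50 (adjusted p = 0.000843) and Pydc4 rose by 4.70 ± 0.43 (adjusted p = 0.000543), with corticosteroid components of 0.17 and 0.11.

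Apol7e, an apolipoprotein L gene, had 6.36, 7.61 and 7.21 in N4 and 10.10, 11.79 and 10.76 in Y3 with corticosteroid. It rose by 3.83 ± 0.30 (adjusted p = 0.000310), and the groups did not overlap. Slfn2, a quiescence factor of T cells, rose by 2.37 ± 0.13 (adjusted p = 0.000104), with a corticosteroid component of 0.52. Irf7, a regulator of interferon genes, rose by 2.48 ± 0.33 (adjusted p = 0.00251). Aim2 had a difference of 0.02 ± 0.21 (adjusted p = 0.977).

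The GTPases, which are induced by interferon gamma and attack vacuoles of intracellular microbes, rose while Ifng was lower. Gbp2 had 10.19, 11.13 and 12.04 in N4 and 12.27, 14.50 and 13.66 in Y3 with corticosteroid, without overlap. Gbp2 rose by 2.35 ± 0.32 (adjusted p = 0.00270; 0.236 without the block), with a corticosteroid component of 0.79. Iigp1 was at least 3.27-fold higher (fitted difference 2.97 ± 0.45, adjusted p = 0.00434; 0.210 without the block) and Irgm1 rose by 1.68 ± 0.24 (adjusted p = 0.00337; 0.167 without the block). In class I presentation 4 of 11 members rose, against 5.03% of all rows and 11.5% of rows above the background line called higher. The count was 2 without replicate 2 or 3 of N4 or replicate 1, 2 or 3 of Y3 with corticosteroid, and 1 without the block. Nlrc5, the transactivator of class I genes, rose by 1.36 ± 0.19 (adjusted p = 0.00324; 0.230 without the block). B2m had a difference of 0.11 ± 0.07 (adjusted p = 0.414) and H2-K1 one of 0.27 ± 0.09 (adjusted p = 0.0871).

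**Figure D3:**
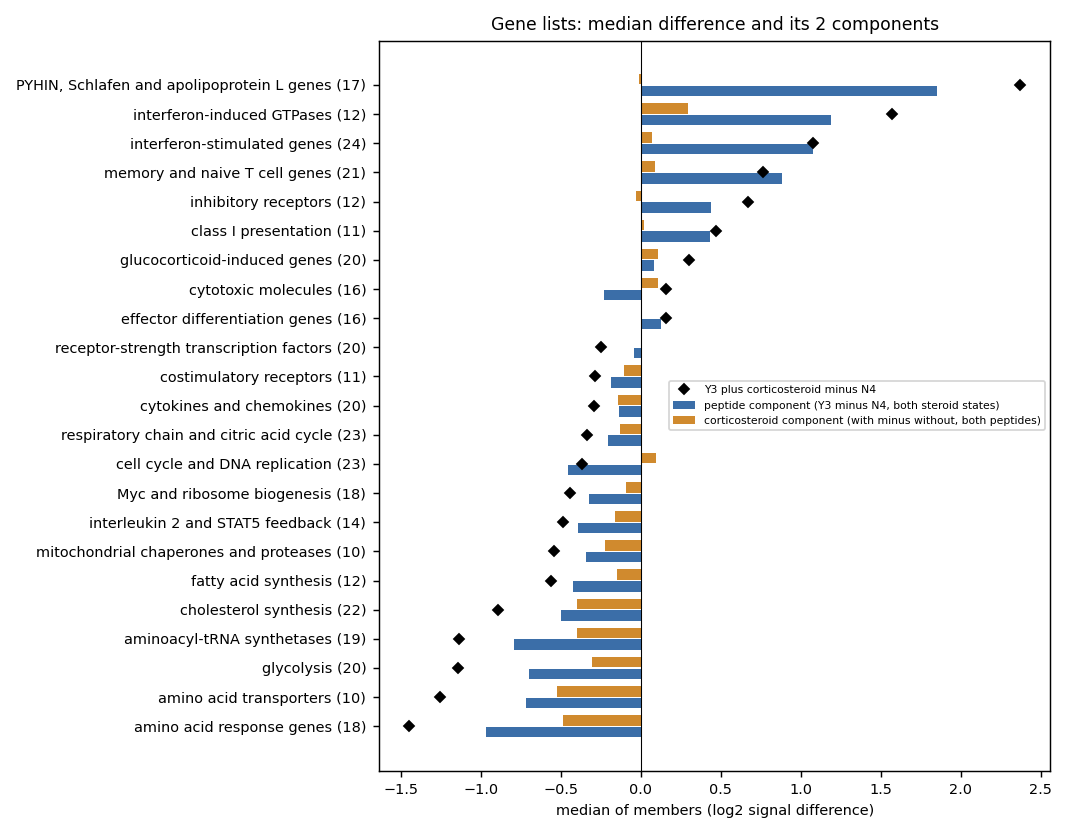
Median over the members of 23 gene lists (number on the array in brackets) of Y3 with corticosteroid minus N4 (diamonds), of the peptide component and of the corticosteroid component (bars), in log2 signal. The corticosteroid bar is 0.07 for interferon-stimulated genes and -0.52 for amino acid transporters. A median of sums need not equal the sum of medians.

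Most amino acid genes on the lists below were lower, and the list medians of both components were below 0. The transcription factor ATF4 drives this programme when amino acids are short or growth signals are strong, by binding composite sites in genes of amino acid synthesis, transport and tRNA charging. Of 18 amino acid response genes 12 fell, of 10 amino acid transporters 6 fell and 1 rose, and of 19 aminoacyl-tRNA synthetases 13 fell, against 5.07% of all rows called lower. The median differences were -1.45, -1.25 and -1.14, and the medians of the corticosteroid component were -0.48, -0.52 and -0.40. Without the block 8, 5 and 7 members passed. In the 6 compared arrays with the block 8, 4 and 8 were called lower.

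Stretches before the start of 4 of the genes that fell are shown because each holds the letters of the ATF4 composite site, TGATG, any base, AA, in capitals on either strand (TT, any base, CATCA in reverse). They come from the same RefSeq table and build, are written along the gene's strand, and end just before the start except in Pycr1, where the last base shown is 31 bases before it.
Asns, chr6:7693210-7693299, minus strand: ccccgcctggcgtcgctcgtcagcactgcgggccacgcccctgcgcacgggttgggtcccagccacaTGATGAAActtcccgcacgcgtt
Pycr1, chr11:120643779-120643868, minus strand: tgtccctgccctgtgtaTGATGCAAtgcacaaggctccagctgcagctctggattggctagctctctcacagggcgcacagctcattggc
Gars, chr6:55037911-55038000, plus strand: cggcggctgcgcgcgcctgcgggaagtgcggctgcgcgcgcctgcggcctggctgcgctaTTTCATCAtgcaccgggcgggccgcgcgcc
Tars, chr15:11399659-11399748, minus strand: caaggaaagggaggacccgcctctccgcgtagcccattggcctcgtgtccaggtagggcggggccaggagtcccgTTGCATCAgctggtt
The letters occurred in 6 of 17 amino acid response genes with a window, 5 of 12 aminoacyl-tRNA synthetases and 1 of 6 transporters, against 4.51% of all genes with a window. The synthetases with a match include Aars, which has no row of that symbol on the array. A match to this motif overlapped one to the interferon-stimulated response element in 8 of the 32851 windows of the table.

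Atf4 itself fell by 1.91 ± 0.16 (adjusted p = 0.000445), of which -1.42 was the peptide component and -0.50 the corticosteroid component. Pycr1, an enzyme of proline synthesis, had 8.80, 8.89 and 8.55 in N4 and 7.03, 6.77 and 7.09 in Y3 with corticosteroid, and was at least 2.83-fold lower (fitted difference -1.78 ± 0.13, adjusted p = 0.000250). Cth, which makes cysteine from cystathionine, was at least 2.83-fold lower (fitted difference -2.88 ± 0.24, adjusted p = 0.000395). Mthfd2, a mitochondrial folate enzyme, fell by 2.14 ± 0.16 (adjusted p = 0.000250), with components of -1.40 and -0.75. Ddit3 (CHOP), another ATF4 target, had a difference of -1.44 ± 0.55 (adjusted p = 0.157).

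Among the transporters, Slc7a5 (LAT1), the carrier of large neutral amino acids in activated T cells, had 15.04, 14.78 and 14.14 in N4 and 13.09, 10.70 and 12.19 in Y3 with corticosteroid, without overlap. It fell by 2.66 ± 0.41 (adjusted p = 0.00473; 0.106 without the block), with components of -1.64 and -1.02. Its partner chain Slc3a2 fell by 1.35 ± 0.22 (adjusted p = 0.00620). Among the synthetases, Gars had 15.90, 15.68 and 15.64 in N4 and 14.78, 14.02 and 14.14 in Y3 with corticosteroid and fell by 1.42 ± 0.12 (adjusted p = 0.000374). Tars fell by 1.22 ± 0.18 (adjusted p = 0.00375; 0.197 without the block). Wars, an interferon-inducible synthetase, had a difference of 0.46 ± 0.37 (adjusted p = 0.566).

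Glycolysis genes were lower too. Of 20 members 15 fell and none rose, against 5.07% of all rows and 12.8% of rows above the background line called lower. Their median was -1.14. The count was 4 without the block and 7 without replicate 2 of Y3 with corticosteroid. In the 6 compared arrays with the block it was 2. Hexokinase 2 (Hk2), the first enzyme of glucose use in activated cells, had 11.35, 10.23 and 10.03 in N4 and 9.999, 7.40 and 7.70 in Y3 with corticosteroid. Those groups did not overlap. It fell by 2.17 ± 0.37 (adjusted p = 0.00755; 0.140 without the block), with components of -1.37 and -0.80. Triosephosphate isomerase (Tpi1) fell by 2.16 ± 0.33 (adjusted p = 0.00449; 0.0765 without the block). The glucose transporter gene Slc2a1 had a difference of -2.03 ± 0.60 (adjusted p = 0.0661). In mitochondria, 6 of 10 chaperone and protease genes fell (3 without replicate 2 of Y3 with corticosteroid, and 3 without the block), led by Lonp1, which fell by 2.69 ± 0.24 (adjusted p = 0.000478). Of 23 respiratory chain and citric acid cycle genes 5 fell, with a median of -0.34. The count was 3 without replicate 1 or 2 of N4 or replicate 2 of Y3 with corticosteroid, and 0 without the block. It was also 0 in the 6 compared arrays with the block.

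Sterol synthesis differed between replicates. Of 22 cholesterol genes 6 fell, against 5.07% of all rows and 12.8% of rows above the background line called lower. Fdps, which makes farnesyl diphosphate, fell by 1.81 ± 0.24 (adjusted p = 0.00232; 0.144 without the block). Pmvk, the phosphomevalonate kinase gene, fell by 0.88 ± 0.10 (adjusted p = 0.00140; 0.0862 without the block). The median over the list was -1.32 in pair 1, -1.62 in pair 2 and 0.17 in pair 3. Hmgcs1 had 16.18, 16.11 and 13.42 in N4 and 14.58, 13.84 and 14.02 in Y3 with corticosteroid, a difference of -1.09 ± 0.57 (adjusted p = 0.313). Without the 4 arrays of replicate 3, 20 of the 22 genes were called lower with a median of -1.48. Of 12 fatty acid synthesis genes 6 fell, against the same shares (3 without replicate 1 or 2 of Y3 with corticosteroid). Fads2 came second after Scd1, at -2.48 ± 0.45 (adjusted p = 0.0100; 0.488 without the block). Neither list had a member past the threshold without the block. In the 6 compared arrays with the block 1 cholesterol gene and 0 fatty acid synthesis genes were called lower.

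Of 18 Myc and ribosome biogenesis genes 2 fell, a share near the 12.8% called lower among rows above the background line: Nob1, a ribosome assembly factor, by 0.64 ± 0.07 (adjusted p = 0.00133) and Myc by 0.84 ± 0.19 (adjusted p = 0.0218; 0.253 without the block). The Myc call was lost without replicate 1 of N4 (0.0876), replicate 2 of N4 (0.0939), replicate 1 of Y3 with corticosteroid (0.0795) and replicate 2 of Y3 with corticosteroid (0.0803). The list medians by pair were -1.16, -0.68 and 0.46, and without replicate 3 in all groups 10 members were called lower, while without the block 1 was. With 1 array left out the count was 1 without replicate 1 or 2 of N4 or replicate 1 or 2 of Y3 with corticosteroid. Of 23 cell cycle and replication genes 2 were called lower, again near that share. That count was 0 without replicate 1 or 2 of N4 or replicate 1 or 2 of Y3 with corticosteroid, 1 without replicate 3 of N4, replicate 1 or 3 of N4 with corticosteroid or replicate 1, 2 or 3 of Y3 and 4 without replicate 3 of Y3 with corticosteroid, and 0 without the block. Mki67, the proliferation marker, had a difference of -0.37 ± 0.35 (adjusted p = 0.658).

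**Figure D4:**
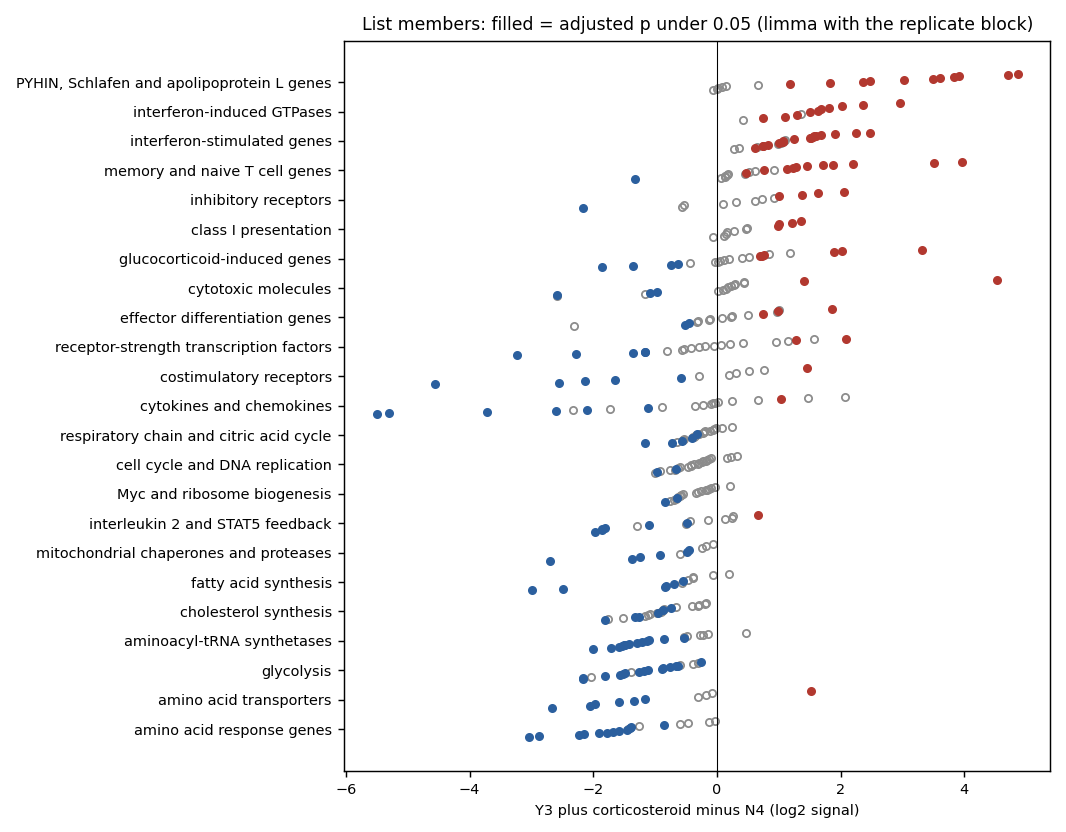
Y3 with corticosteroid minus N4 (log2 signal) for each member of the 23 lists, ordered by list. Filled points passed the threshold in the fit with the replicate block (red higher, blue lower) and open points did not. The interferon lists hold no blue point, and the glycolysis, tRNA synthetase and amino acid response lists hold no red one.

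Several cytokine genes were lower. Il24, an interleukin 10 family cytokine, had 11.38, 11.51 and 7.80 in N4 and 4.79, 4.79 and 4.60 in Y3 with corticosteroid, and the groups did not overlap. It was at least 7.90-fold lower (fitted difference -5.50 ± 0.84, adjusted p = 0.00459). Lif was at least 4.34-fold lower (fitted difference -2.60 ± 0.29, adjusted p = 0.00118), with a corticosteroid component of -0.01. Of 20 cytokines and chemokines 6 fell (3 without replicate 1 or 2 of Y3 with corticosteroid, and 2 without the block), against 5.07% of all rows, and 8 were below the background line in both groups. Ltb, lymphotoxin beta, rose by 1.04 ± 0.20 (adjusted p = 0.0128; 0.257 without the block), a call lost without replicate 1 of Y3 with corticosteroid (0.0530) and replicate 2 of Y3 with corticosteroid (0.0690).

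Of 11 costimulatory receptors 5 fell (3 without replicate 2 of Y3 with corticosteroid, and 3 without the block). Called lower were 5.07% of all rows and 12.8% of rows above the background line. Tnfrsf9 (4-1BB) fell by 2.13 ± 0.19 (adjusted p = 0.000478) and Tnfrsf4 (OX40) fell by 2.56 ± 0.26 (adjusted p = 0.000779). Cd27 rose by 1.46 ± 0.16 (adjusted p = 0.00118; 0.0988 without the block). Il2ra, the high-affinity chain of the interleukin 2 receptor, had 16.67, 16.35 and 15.79 in N4 and 15.01, 14.26 and 14.12 in Y3 with corticosteroid, without overlap. It fell by 1.80 ± 0.14 (adjusted p = 0.000283), with components of -1.27 and -0.53. Of 14 interleukin 2 and STAT5 feedback genes 6 fell, 1 rose and 7 were not called, against 5.07% lower and 5.03% higher over all rows. Without the block 3 fell and 0 rose, and in the 6 compared arrays with the block 4 fell and 0 rose. Pim1 and Osm, targets of STAT5, were lower as well: Pim1 fell by 1.98 ± 0.18 (adjusted p = 0.000509) and Osm fell by 1.85 ± 0.13 (adjusted p = 0.000203; 0.0592 without the block).

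Of 20 transcription factors that scale with receptor strength, 5 fell and 2 rose, and without the block 1 fell and 2 rose. Over all rows 5.07% were called lower and 5.03% higher. Among rows above the background line the shares were 12.8% and 11.5%, so the count of higher genes was near its share. Zbtb32 fell by 3.23 ± 0.39 (adjusted p = 0.00165; 0.0633 without the block) and Irf4 fell by 1.16 ± 0.20 (adjusted p = 0.00738; 0.202 without the block). Batf3 was at least 4.15-fold lower (fitted difference -2.27 ± 0.20, adjusted p = 0.000488), with a peptide component of -2.30 and a corticosteroid component of 0.02. Egr3, an early response gene, rose by 2.08 ± 0.37 (adjusted p = 0.00928), while Nr4a1 had a difference of 1.57 ± 0.60 (adjusted p = 0.157). The phosphatase gene Dusp4, which limits ERK signals, fell by 3.32 ± 0.62 (adjusted p = 0.0109; 0.0955 without the block), with a corticosteroid component of -1.06.

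Genes of naive and memory T cells rose in 11 of 21 cases, against 5.03% of all rows, and 1 fell. The count of higher genes was 6 without replicate 1 or 2 of N4 and 7 without replicate 1 or 2 of Y3 with corticosteroid. It was 2 without the block, and 2 in the 6 compared arrays with the block. Ly6c2, a memory-associated surface protein, had 10.33, 11.38 and 9.72 in N4 and 13.90, 14.53 and 14.88 in Y3 with corticosteroid, without overlap. It rose by 3.96 ± 0.36 (adjusted p = 0.000543), with a peptide component of 4.16 and a corticosteroid component of -0.20. Tcf7, the transcription factor TCF-1 of stem-like T cells, had 7.93, 10.52 and 13.05 in N4 and 12.90, 14.55 and 14.56 in Y3 with corticosteroid. The arrays differed by several units within N4 and the groups overlapped, but each pair rose. Tcf7 rose by 3.50 ± 0.61 (adjusted p = 0.00820; 0.327 without the block). Eomes, a T-box factor of memory cells, rose by 2.20 ± 0.37 (adjusted p = 0.00753). Ccr7, which guides cells to lymph nodes, had a difference of 0.16 ± 0.54 (adjusted p = 0.926).

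Cytotoxic genes were mixed. Of 16 members 2 rose, Gzma and Ctsw, and 3 were called lower (1 without replicate 1 or 2 of N4 or replicate 1 or 2 of Y3 with corticosteroid and 5 without replicate 3 of N4 or replicate 3 of Y3 with corticosteroid), and 0 passed without the block. The median of 0.16 became -0.07 when arrays were centred on the negative controls. Gzmb (granzyme B) fell by 0.97 ± 0.15 (adjusted p = 0.00432; 0.435 without the block), from 19.27, 18.83 and 17.92 to 18.30, 17.64 and 17.19, and the groups overlapped. Prf1 (perforin) had a difference of -2.59 ± 0.78 (adjusted p = 0.0748). Effector differentiation genes had 3 higher and 2 lower of 16, and their median of 0.16 became -0.08 under that centring. Their count of lower genes was 0 without replicate 3 of N4 or replicate 2 or 3 of Y3 with corticosteroid and 1 without replicate 1 or 2 of N4, replicate 1 of N4 with corticosteroid, replicate 1 or 2 of Y3 or replicate 1 of Y3 with corticosteroid. Without the block 1 was higher and 0 lower, and 8 of the 16 were below the background line in both groups. Over all rows 5.03% were called higher and 5.07% lower. Among rows above the background line the shares were 11.5% and 12.8%. The counts of 2 in both lists were near these shares, and the counts of 3 were not far above them.

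In some genes the corticosteroid component opposed the peptide component, and 3 are given as examples that were chosen after their values were seen. Cish, a STAT5-induced feedback inhibitor, had 12.88, 11.86 and 12.78 in N4, 10.38, 9.15 and 10.30 in Y3, and 10.92, 10.33 and 10.69 in Y3 with corticosteroid. Its peptide component of -2.29 was countered by 0.43, and it fell by 1.86 ± 0.14 (adjusted p = 0.000269; 0.0566 without the block). Bcl2, the survival factor, had a peptide component of -1.68 and a corticosteroid component of 0.35. Bcl2 fell by 1.32 ± 0.24 (adjusted p = 0.0104; 0.337 without the block), a call lost without replicate 2 of N4 (0.0541) and replicate 2 of Y3 with corticosteroid (0.0575). Cxcr6, a homing receptor of tissue-resident T cells, had components of 2.16 and -0.76 and rose by 1.40 ± 0.24 (adjusted p = 0.00795; 0.0779 without the block).

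The labelled cell type was checked against markers. The 9 CD8 T cell genes had mean levels of 14.7 to 14.9 on the N4 arrays and 14.9 to 15.3 on those of Y3 with corticosteroid. Of them 3 were called higher and 1 lower, against 5.03% and 5.07% of all rows. Among rows above the background line the shares were 11.5% and 12.8%, so the count of lower genes was near its share. The count of higher genes was 1 without replicate 2 or 3 of N4 or replicate 2 of Y3 with corticosteroid, and without the block 0 were higher and 0 lower. The lower call, Cd2, was lost without replicate 1 of N4 (0.160), replicate 2 of N4 (0.0536), replicate 3 of N4 (0.154), replicate 1 of N4 with corticosteroid (0.0606), replicate 3 of N4 with corticosteroid (0.0624), replicate 1 of Y3 (0.0559), replicate 3 of Y3 (0.0669), replicate 1 of Y3 with corticosteroid (0.132), replicate 2 of Y3 with corticosteroid (0.0764) and replicate 3 of Y3 with corticosteroid (0.144). In bulk RNA, fewer cells of a type and less RNA per cell cannot be told apart. All 7 dendritic cell markers, all 7 neutrophil markers and all 5 erythroid markers were below the background line in both groups, as were 9 of 10 B cell markers, 9 of 10 macrophage markers and 4 of 5 natural killer cell markers. Of the B cell markers 1 was called higher, and of the macrophage markers 1 was called higher and 1 lower, with 0 calls in either list without the block. Of 5 markers of CD4 and regulatory T cells 3 were below the line in both groups and 2 were called lower (1 without replicate 1, 2 or 3 of N4, replicate 1, 2 or 3 of N4 with corticosteroid, replicate 1 or 3 of Y3 or replicate 1, 2 or 3 of Y3 with corticosteroid). The B cell list had mean levels of 4.62 to 4.73 in N4 and 4.57 to 4.64 in Y3 with corticosteroid, and the macrophage list 4.85 to 5.17 and 4.87 to 5.19. The natural killer marker Klrb1c was called higher (adjusted p = 0.00354) while below the line in both groups. Of 9 class II presentation genes 4 were below the line in both groups, 2 were called higher and 2 lower. H2-Ab1 fell by 1.55 ± 0.29 (adjusted p = 0.0106), a call lost without replicate 2 of Y3 with corticosteroid (0.0572), and Cd74 was at least 1.45-fold lower (fitted difference -1.25 ± 0.24, adjusted p = 0.0115; 0.156 without the block), a call lost without replicate 1 of N4 (0.0515). The part of remaining other cells in the results was not tested.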

How the data were processed

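The 12 OT-I samples were measured on 1-colour Affymetrix mouse arrays. The deposited values are, per the file headers, gene-level signal intensities on a linear scale from the SST-RMA summary, and the submitters' processing notes name RMA. No source used here names the array's genome build. The design table had assumed log2 values. The deposited intensity was therefore converted to log2, with no pseudocount and no further normalization, and the lowest and highest signals were 3.27 and 994483. The table's columns matched the series' sample columns in all 72688 rows (relative tolerance 1e-6). Control rows were left out, and 25833 transcript rows without a symbol were fitted apart.

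limma 3.58.1 in R 4.3.3 fitted group means and the replicate number over 40123 rows and 12 arrays, with eBayes and Benjamini-Hochberg adjustment. P-values are two-sided. The number was a block because same-numbered arrays were to be paired. Deviations from the group means correlated at 0.126 to 0.805 in the 18 same-number pairs and at -0.701 to 0.483 between different numbers. Between N4 and Y3 with corticosteroid the same-number values were 0.534, 0.152 and 0.212. Replicate 3 of N4 correlated at 0.398 with replicate 2 of Y3 with corticosteroid, and the other different-number values of these groups were negative. Deviations within a group cancel out, so high same-number values force low different-number ones. The contrast therefore cannot show that the arrays were paired. Errors are limma standard errors. A group was below background where all 3 arrays were under the line, and a fold against it is a lower bound. The number of arrays limits the precision. For symbols with several rows a list took the brightest.

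Named genes were the 14 highest and 14 lowest called rows with 3 of 3 pairs in 1 direction and the higher group above the line, the 8 with the largest smaller component, the 6 members per list with the lowest p, Nr3c1 and the cell type markers. Further genes, among them Mir155, the 5 rows with a called corticosteroid effect and other list members, were added after their values were seen. Predicted genes, other small RNAs and receptor segments were not named. Of 458 list genes, 452 were on the array. Members, lists and tests were chosen with earlier results of these data known. Both alternatives added later are named as such. The fit was tested on simulated data. Tables and plots used matplotlib 3.10.9, numpy 2.4.6 and pandas 2.3.3 under Python 3.11.15. Promoters and the miRNA are from RefSeq tables, where 347 list genes had a window.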

Additional observations from a re-analysis of the deposited data

Results flagged for a closer look

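Rows without a gene symbol lay outside the comparison, and 1586 of the 25833 passed the threshold in a fit of the same kind, or 6.14%. Of these, 1508 were higher and 78 lower in Y3 with corticosteroid than in N4, whereas the rows with a symbol were split 2017 to 2036. The median difference over the rows without a symbol was 0.06. The negative controls of the array were brighter by medians of 0.27, 0.35 and 0.08 in the 3 pairs, and none of the 5222 was called. The part of that shift in the 1508 higher rows was not tested. Groups of 3 arrays are too small for the outlier test, and no departure from additivity passed the threshold.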

How the results depend on the processing

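The count of rows called between the corners, 4053, became 663 with no replicate block, 576 in the 6 arrays with the block and 0 in the 6 arrays without it, where 5400 rows had an unadjusted p below 0.05 and the lowest adjusted p was 0.0620. It became 6189 when arrays were centred on their negative controls, a choice made after the data were seen (2999 of them among the 4053), 4780 without the 4 arrays of replicate 3 (also chosen then, 2838 of them among the 4053), and ran from 1766 to 3966 when 1 array was left out. In the 6 arrays with the block 2 mitochondrial chaperone and protease genes, 2 cytokines and chemokines and 3 costimulatory receptors were called lower. There 1 inhibitory receptor and 2 class I presentation genes were called higher, and of the glucocorticoid-induced genes 3 were higher and 1 lower. The peptide effect was called in 1288 rows with no replicate block, and in 3540 to 5133 with 1 array left out. The corticosteroid effect, called in 5 rows, was called in 0 with no replicate block (1315 at an unadjusted p below 0.05), 99 with array weights, 31 with centring on the negative controls, 1 without the 4 arrays of replicate 3, and 0 to 7 with 1 array left out. The departure from additivity stayed at 0 rows by limma in all settings run. Of 180 named genes past the threshold, none reversed its sign under any setting run. The call was lost in 121 with no replicate block, in 99 with the 6 arrays and the block, in 180 with the 6 arrays and no block, in 13 with centring on the negative controls, in 11 with median centring, in 9 with a trend and robust moderation, in 8 with quantile normalization, in 4 with array weights, in 25 without replicate 3, and in 8 to 47 with 1 array left out. The cause of these losses was not tested. Of the called rows, 260 had Y3 plus corticosteroid below background and N4 not, and this was 148 with the brightest background control as the line. The reverse held in 116 rows, and in 119 with that control. The background line itself had a mean of 7.25 in Y3 with corticosteroid and 6.97 in N4.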

Other observations

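Gene groups put together after the values had been seen are given as counts, with no test of the groups. Of 20 genes known to respond to low oxygen, 11 fell and none rose, against 5.07% of all rows called lower, with a median of -1.36. The count was 7 without replicate 2 or 3 of N4 or replicate 2 of Y3 with corticosteroid, and 5 without the block. In the 6 compared arrays with the block it was 1. Ero1l, an oxidase of the endoplasmic reticulum, had 16.26, 15.45 and 15.93 in N4 and 14.22, 12.26 and 11.54 in Y3 with corticosteroid, and fell by 3.21 ± 0.51 (adjusted p = 0.00553). Bnip3, a mitophagy receptor, fell by 3.13 ± 0.63 (adjusted p = 0.0150; 0.107 without the block), a call lost without replicate 2 of N4 (0.0569), replicate 3 of N4 (0.0609) and replicate 2 of Y3 with corticosteroid (0.0733). The medians by pair were -0.61, -1.28 and -2.46, so the size differed between replicates. Of 8 Gimap genes, GTPases of lymphocytes, 7 rose, against 5.03% of all rows, with a median of 1.15. The count was 1 without the block and 3 in the 6 compared arrays with the block. Gimap3 led the group and rose by 1.78 ± 0.25 (adjusted p = 0.00336, and 0.0807 without the block). Of 5 genes of the Ikaros family of lymphoid zinc finger factors, 2 were called higher and 1 lower, against 5.03% and 5.07% of all rows. Without the block 0 were higher and 1 lower. Ikzf3 rose by 2.08 ± 0.11 (adjusted p = 0.000104, and 0.0765 without the block). Ikzf4 was at least 2.38-fold lower (fitted difference -1.41 ± 0.27, adjusted p = 0.0114). Ikzf2 was also called higher, a call lost in 5 of the fits with 1 array left out.

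The row named Mir155 fell from 9.90, 9.15 and 10.80 to 7.73, 7.62 and 8.50, a difference of -2.00 ± 0.14 (adjusted p = 0.000216; 0.0660 without the block) with components of -1.54 and -0.47. This miRNA is induced by receptor signals in T cells. Whether the row reports the precursor or its host transcript was not tested. The mature sequence is shown with its seed, bases 2 to 8, in capitals (RefSeq, GRCm38.p6, chr16:84714143-84714165, plus strand).
mmu-miR-155-5p: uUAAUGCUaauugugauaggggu
The cell cycle inhibitor gene Cdkn1a (p21) fell by 2.66 ± 0.19 (adjusted p = 0.000216; 0.0666 without the block), with a corticosteroid component of -1.03. Btg2, an antiproliferative gene, rose by 1.97 ± 0.11 (adjusted p = 0.000104), with 0.17 from the corticosteroid. Bcl2l11 (BIM), a death inducer of the Bcl2 family, had 7.13, 8.38 and 9.86 in N4 and 10.92, 11.38 and 10.75 in Y3 with corticosteroid, and rose by 2.56 ± 0.54 (adjusted p = 0.0181; 0.136 without the block). That call was lost without replicate 1 of N4 (0.0811), replicate 2 of N4 (0.0848), replicate 1 of Y3 with corticosteroid (0.0697) and replicate 2 of Y3 with corticosteroid (0.0815).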
